A study of Arabidopsis with 8 samples.

Results

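The transcriptomes of root and shoot were compared in 5-day-old seedlings of Arabidopsis thaliana Col-0, the wild type of the study. The series holds 8 RNA sequencing libraries in 4 groups of 2, made from Col-0 and from OE-SAUR41, a line labelled as overexpressing SAUR41, a gene of the SMALL AUXIN UP RNA family. The labels give neither the promoter of the transgene nor whether the line is 1 clone. The comparison used the 4 libraries titled Col-0 root (replicates 1 and 2) and Col-0 shoot part (replicates 1 and 2), which is 4 of the 8. The OE-SAUR41 root and shoot libraries, also of 5-day-old seedlings, were used for the tissue difference of that line, for the test of whether it differed from that of Col-0, and in an alternative fit. RNA was extracted with TRIzol from the separated parts and sequenced on an Illumina HiSeq. The labels do not say which organs the shoot part held, where the seedlings were cut, or whether replicates came from separate cultures. The p-values therefore reflect only how much these samples spread, and that spread may be technical.

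A seedling root takes up water and mineral nutrients through its epidermis and root hairs, and filters them at the endodermis, whose Casparian strip and suberin layers seal the path between cells. The shoot fixes carbon in chloroplasts, exports sucrose through the phloem, and exchanges gas through stomata in a wax-covered epidermis. Many enzymes needed in both organs, such as ferredoxin, glutamine synthetase and myrosinase, are encoded by small families whose members are used in different organs. Root hairs, root cap, stomata and trichomes are each set up by a few well-studied transcription factors, and their genes are widely used as markers.

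Expression was given in FPKM, a count of fragments scaled by transcript length and by the mapped fragments of the library. A gene without an entry in a library's file was taken as 0, and a 0 below means not listed. The files listed 22645 and 22748 genes in the root libraries and 21722 and 20851 in the shoot libraries. Summed levels ran from 605751 to 774506 FPKM, and read depth is unknown. A total of 19385 genes reached 1 FPKM in at least 2 of the 4 libraries and were tested with limma on log2(FPKM + 1). Every difference below is root minus shoot on that scale, on which the change of weakly expressed genes is understated, and SE is its standard error. Calls were made at an adjusted p below 0.05 (Benjamini-Hochberg, over all 19385 genes). Of these genes 2130 passed the filter through the roots alone, being under 1 FPKM in both shoot libraries, and 750 through the shoots alone. A gene that entered through 1 tissue had to differ, so its p-value adds nothing to its levels. A list with many such genes is described by its levels, and its count is no support.

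The shoot libraries stood apart from each other. Across genes, which do not count as independent replicates, Pearson's r was 0.929 between Col-0 shoots 1 and 2 and 0.986 between the Col-0 roots. The shoot pair differed by at least 2-fold for 29.5% of the genes, against 1.104% in Col-0 roots, 1.92% in OE-SAUR41 roots and 1.68% in OE-SAUR41 shoots. The gap between shoots 1 and 2 rose with gene span (Spearman's rho 0.62 over 16388 genes that share their locus with no other gene). With genes divided by span into 8 equal groups, the median root-minus-shoot difference against shoot 1 was 0.74 for the shortest and 0.51 for the longest. Against shoot 2 the same medians were 0.56 and 1.90, and in OE-SAUR41 they were 0.72 and 1.86. Calls thinned out with span in both directions. Among the shortest genes 38.0% were called higher in root and 18.8% higher in shoot, and among the longest 17.4% and 3.03%. A count for a list is therefore given with its range when each of the 4 libraries was left out in turn. With 1 root library left out, the spread was estimated from the uneven shoot pair alone, and the lone root library was assumed to vary like it. With 1 shoot library left out it was estimated from the close root pair alone, and the lone shoot library was assumed to vary like that. In every list the lower end of the range came from leaving out a root library and the upper end from leaving out a shoot library.

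**Figure D1:**
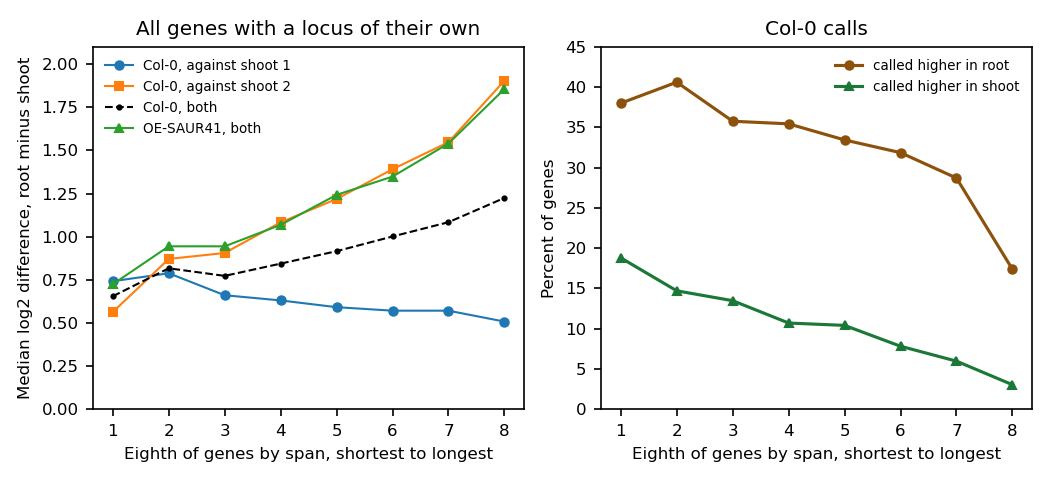
The left panel plots the median root-minus-shoot difference of log2(FPKM + 1) for 8 equal groups of genes ordered by span, for the Col-0 root mean against each shoot library, against both, and for OE-SAUR41. The right panel plots the percent of genes called in each direction in Col-0. The line against shoot 2 climbs to 1.90 and lies along that of OE-SAUR41, while the line against shoot 1 ends at 0.51.

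The tissue labels were checked with 10 shoot markers and 10 root markers. The shoot markers summed to 98.7 and 87.7 FPKM in the roots and to 20624 and 35537 FPKM in the shoots. Of these, FIL, a leaf polarity factor, and GL1, a trichome factor, were listed in neither root library, and SPCH, which starts the stomatal lineage, was at 0 and 0.0577 FPKM. The root markers summed to 6725 and 6229 FPKM in the roots and 746 and 508 FPKM in the shoots. In both tissues nearly all of this sum was PYK10, a beta-glucosidase of endoplasmic reticulum bodies. It had 6496 and 6003 FPKM in the roots and 741 and 499.9 in the shoots, and it was not called with TMM scaling. The other 9 root markers lay at or under 7.10 FPKM in both shoot libraries, and 4 of the 10 were unlisted in each. PLT2, a root stem cell factor, and TGG4, a root myrosinase, were at 0 in both. Of 3 vascular markers expected in both organs, SUC2, the phloem sucrose loader, had 18.1 and 14.4 FPKM in roots and 111 and 131 in shoots, while APL and CESA7 were not called. In bulk samples, fewer cells of a type and less RNA per cell cannot be told apart, which holds for every tissue difference below.

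Col-0 roots and shoots differed at 8309 of the 19385 genes tested (42.9%). Higher in root were 6236 genes (32.2%), with a median difference of 1.78, and higher in shoot were 2073 (10.7%), with a median of -2.41. The shoot calls were fewer and larger. Differences of 5 or more on the log2 scale, with the sign of the tissue, were found for 185 root genes and 240 shoot genes. All called genes had 2 libraries of one tissue above both of the other, as had 84.2% of all tested genes, 67.9% in the direction of root and 16.3% in that of shoot. Leaving out 1 library moved both counts. The root count was 1643 and 1624 without roots 1 and 2, and 13515 and 10094 without shoots 1 and 2. The shoot count was 603 and 548 without roots 1 and 2, and 2711 and 3397 without shoots 1 and 2.

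**Figure D2:**
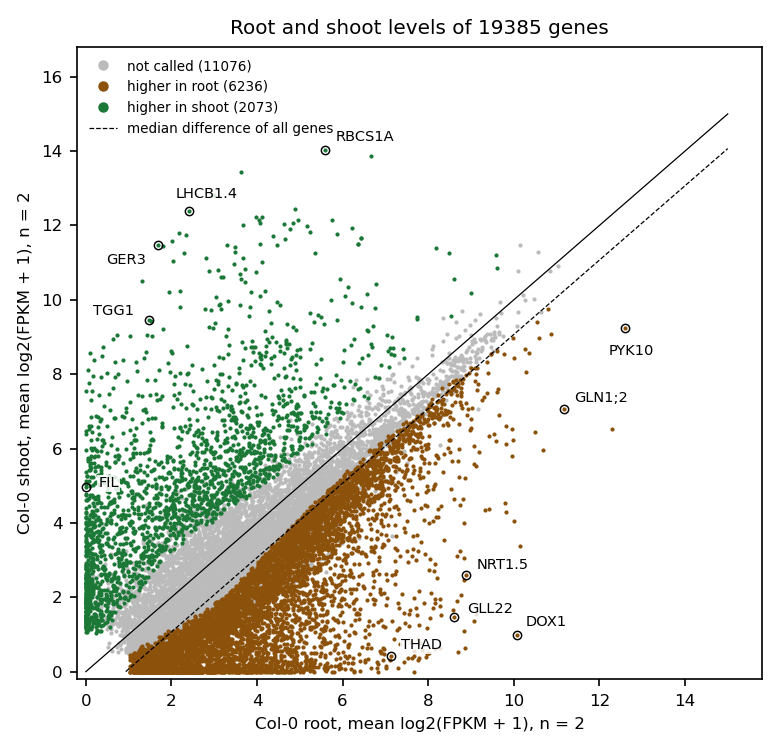
Each point is a gene, with its mean log2(FPKM + 1) in the 2 Col-0 root libraries on the x axis and in the 2 shoot libraries on the y axis, coloured by call. The cloud of genes not called lies below the line of equality, along the dashed line of the median difference of 0.93, and LHCB1.4 and DOX1 mark the far corners.

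The surplus of root calls depended on scaling. As deposited, the median difference of all genes was 0.93. Genes of the light-harvesting complexes, the nuclear photosystem subunits and the Calvin cycle, 57 in all, took 18.4% and 30.7% of the summed FPKM in shoots and 0.14% and 0.13% in roots. The 100 highest genes took 33.8% and 46.0% in shoots and 17.0% and 15.7% in roots. TMM scaling brought the median to 0.09 and gave 3016 root calls (15.6%) and 3228 shoot calls (16.7%), together 32.2%. Quantile normalization brought it to 0.20 and gave 4256 (22.0%) and 3595 (18.5%), together 40.5%. Root calls were thus 75.1% of all calls as deposited, 48.3% with TMM and 54.2% with quantile normalization. Called the same way under all 3 were 2699 root genes (13.9%) and 2060 shoot genes (10.6%), together 24.5%. The 2060 are nearly all of the 2073 shoot calls, while the 2699 are a minor part of the 6236 root calls. Gene lists are given below with the number of members called under all 3 scalings, to be read against these percentages. Where members that entered through 1 tissue alone are left out of a list, the matching background is 16505 genes. Of these, 4248 were higher in root and 1391 in shoot as deposited, and 1289 and 1385 under all 3 scalings.

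Among called genes that averaged 5 FPKM or more in the higher tissue, the 12 with the largest root-higher differences were led by DOX1, an alpha-dioxygenase that oxidises fatty acids. It had 1049.7 and 1121 FPKM in the roots and 1.15 and 0.840 in the shoots, a difference of 9.09 (SE 0.23, adjusted p = 0.000623). AT3G28550 and AT1G23720 followed at 8.23 and 8.15, and AT3G54580 at 7.57. MLP328 and MLP329, major latex protein-like genes that lie side by side on chromosome 2, had 525 and 398 and 333 and 283 FPKM in roots and at most 2.19 FPKM in shoots. FLS5, of the flavonol synthase family, had 547 and 526 FPKM in roots and 2.03 and 1.18 in shoots. JAL10, a jacalin-related lectin, had 196 and 211 FPKM in roots and was listed in neither shoot library. The remaining 4 were GRP9, a glycine-rich protein, the beta-glucosidase BGLU21, the sulfurtransferase STR19 and the peroxidase PER27, with differences from 7.49 to 7.56. The 12 were chosen among called genes whose tissues do not overlap, and all were called under the 3 scalings. AT3G28550, AT1G23720, JAL10, MLP329, AT3G54580, BGLU21, STR19 and PER27 entered the test through the roots alone. The calls of these genes add nothing to their levels.

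The 12 largest shoot-higher differences, chosen in the same way, were those of 5 light-harvesting genes (LHCB1.4, LHCB1.2, LHCB1.1, LHCB2.2 and LHCB2.1), 3 genes of the small subunit of Rubisco (RBCS3B, RBCS2B and RBCS1B), the carbonic anhydrase CA1, the germin-like protein GER3, AT2G10940 and AT1G23130. GER3 had 1.90 and 2.61 FPKM in roots and 2126 and 3792 in shoots, a difference of -9.78 (SE 0.35, adjusted p = 0.000623). CA1, which interconverts carbon dioxide and bicarbonate, had 1.17 and 1.801 FPKM in roots and 1306 and 1627 in shoots. AT1G23130 was at 0 and 0.134 FPKM in roots against 341 and 418 in shoots. The differences of the 12 ran from -10.00 to -8.47, and all 12 were called under the 3 scalings. AT1G23130 entered the test through the shoots alone, so its call adds nothing to its levels.

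Photosynthesis was the strongest pattern of the shoot. All 19 tested light-harvesting genes, 22 of 22 nuclear photosystem genes and 16 of 16 genes of Rubisco and the Calvin cycle were higher in shoot, under all 3 scalings, against 10.6% of all genes. Their median differences were -7.90, -7.21 and -7.17, against 0.93 for all genes. With each library left out in turn, 17 to 19, 22 and 16 of them were called. Of the light-harvesting genes 2 entered the test through the shoots alone. The other 17 were higher in shoot under all 3 scalings. LHCB1.4, a major antenna protein of photosystem II, had 3.10 and 5.79 FPKM in roots and 3299 and 8806 in shoots, a difference of -10.00 (SE 0.54, adjusted p = 0.000698). Shoot 2 gave more than 2 times the level of shoot 1 here, and both were far above both roots. Among the photosystem I subunits, PSAL had 14.8 and 9.42 FPKM in roots and 2818 and 5983 in shoots, and PSAG 15.5 and 14.3 and 3085 and 7531. Related LHCB1 and LHCB2 genes are nearly identical in sequence, as are the RBCS genes, and the sources used here do not say how fragments matching several genes were assigned. Single values within these families are uncertain, and LHCB1.3 was left out as a failed estimate.

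Members of the photosynthetic lists differed widely in the level left in roots. RBCS1A kept 51.4 and 43.5 FPKM in roots beside 11901 and 23748 in shoots, and its relative RBCS2B 1.83 and 3.30 beside 2383 and 3328. LHCB1.5, a gene with a shared locus, had 119 and 85.8 FPKM in roots. PGK1, a plastid phosphoglycerate kinase, and RPE, a pentose phosphate epimerase, showed the smallest differences of the Calvin cycle list, -4.27 and -3.62, with 57.7 and 46.4 and 25.3 and 28.3 FPKM in roots. Among the antenna genes the smallest was that of LHCB4.3, -1.51, with 2.23 and 1.33 FPKM in roots and only 6.56 and 7.05 in shoots. PRK, phosphoribulokinase, which is used in no other pathway, had 1.56 and 2.24 FPKM in roots against 700.1 and 689 in shoots. These genes were picked from the lists after their values were seen.

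Photorespiration salvages the product of Rubisco's reaction with oxygen. Of its 12 genes 11 were higher in shoot under all 3 scalings (8 to 11 with a library left out), with a median of -3.92. PGLP1 entered the test through the shoots alone, and of the other 11, 10 were higher in shoot under all 3 scalings. GOX1, a glycolate oxidase of the peroxisome, had 1.58 and 1.801 FPKM in roots and 500.3 and 557 in shoots. Its paralog GOX2 kept 19.8 and 18.2 FPKM in roots beside 368 and 323 in shoots. The glycine decarboxylase subunits, which mitochondria also use outside photorespiration, differed among themselves. GDCH had 2.34 and 3.34 FPKM in roots and 297 and 331 in shoots, and GDCST 82.3 and 70.3 and 512 and 466. CAT2, a catalase, was the single member not called, with 208 and 194 FPKM in roots and 138 and 126 in shoots (difference 0.61, adjusted p = 0.0695, and -0.43 with TMM).

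Chlorophyll synthesis genes were lower in roots at nearly every step, with 13 of 15 tested genes higher in shoot under all 3 scalings (10 to 14 with a library left out) and a median of -3.97. PORB, which makes chlorophyllide in the light, had 9.36 and 6.38 FPKM in roots and 911 and 994 in shoots (difference -6.77, SE 0.26, adjusted p = 0.000623). GUN4 and CHLH, which feed magnesium into the porphyrin, differed by -5.72 and -4.87. GSA1, of a step shared with heme, had 31.3 and 30.6 FPKM in roots and 133 and 116 in shoots, and HEMA1 and HEMA2, the glutamyl-tRNA reductases at the start of the path, were not called as deposited. HEMA1 was called higher in shoot under both other scalings, under which the sign of HEMA2 turned (0.64 as deposited, -0.31 with TMM). HEMA1 had 152 and 39.7 FPKM in the shoots, so that these libraries differed more from each other than shoot 2 from the roots (24.0 and 20.2). PORA was listed at 0.259 FPKM or less in all 4 libraries and not tested.

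Light signalling genes split. Of 19 tested members 6 were higher in shoot and 2 in root, under all 3 scalings (3 to 11 and 0 to 10 with a library left out). Through the shoots alone 3 of the 19 entered the test, GLK1, PIF4 and PIF5, so that they had to differ. Of the other 16, 3 were higher in shoot and 2 in root under all 3 scalings. GLK1 and GLK2, which drive chloroplast development, had 0.188 and 0.354 and 3.14 and 2.65 FPKM in roots and 98.6 and 122 and 49.8 and 58.3 in shoots. PIF4 and PIF5, growth factors held back by phytochrome, had at most 0.722 FPKM in roots and 39.7 and 27.5 and 32.2 and 15.9 in shoots. PHOT2 and UVR8, receptors for blue and ultraviolet-B light, were the other shoot-higher genes, at -3.77 and -1.04. HY5, a transcription factor that promotes greening and is also known to act in roots, went the other way, with 31.5 and 25.4 FPKM in roots and 2.85 and 2.11 in shoots (difference 3.08, SE 0.35, adjusted p = 0.00265). Its homolog HYH had 15.9 and 16.7 FPKM in roots and 1.57 and 0.945 in shoots. None of the 5 phytochrome genes was called. PHYA, for example, had 40.2 and 43.5 FPKM in roots and 27.1 and 7.31 in shoots, where the shoot libraries lay far apart.

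Wax and cutin cover the shoot epidermis, in which stomata form. Of 15 tested wax and cutin genes 10 were higher in shoot under all 3 scalings (3 to 12 with a library left out). LTP1, a lipid transfer protein of the epidermis, had 14.4 and 10.4 FPKM in roots and 1358 and 2458 in shoots, and KCS6, which elongates wax precursors, 8.20 and 6.75 and 225 and 228. CER1 and CER2, which serve alkane formation and chain elongation, differed by -3.35 and -4.25. The acyl reductase CER4 was higher in root as deposited and with TMM, at 2.55 and 1.48 FPKM against 0.179 and 0.0661, and not with quantile normalization. It entered the test through the roots alone, so its call adds nothing to these levels. Of 17 stomatal genes 4 did not reach the filter, and 11 of the 13 tested entered through the shoots alone, so that they had to differ. All 13 were called higher in shoot under the 3 scalings. ICE1 and SCRM2, widely used partner factors, were the 2 that entered through both tissues, at 6.42 and 5.80 and 1.11 and 1.12 FPKM in roots and 25.8 and 18.4 and 21.6 and 10.9 in shoots. The others included the receptor gene TOO MANY MOUTHS (symbol TMM, unrelated to the scaling; 0.137 and 0.0862 FPKM in roots, 14.3 and 20.5 in shoots), the peptides EPFL9 (13.01 and 17.6 in shoots) and EPF1 (4.18 and 9.94), and FAMA, which closes the lineage with guard cells (9.44 and 2.15). In the roots none of the other members exceeded 0.631 FPKM. With a root library left out 0 of the 13 were called, against 13 with a shoot library left out.

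YABBY genes, which mark the lower side of leaves and other lateral organs, were at or near 0 in roots. FIL, YAB2, YAB3 and YAB5 had 26.6 and 33.8, 13.9 and 11.8, 21.1 and 26.3 and 19.0 and 11.5 FPKM in the shoot libraries and at most 0.0771 in a root library. STM, which maintains the shoot meristem, had 0.129 and 0 FPKM in roots and 3.997 and 3.79 in shoots. Of 15 tested members of the list 9 were higher in shoot under all 3 scalings (1 to 9 with a library left out). Of the 9, 7 entered the test through the shoots alone, and the other 2 were AS1 and TCP4. The class III HD-ZIP factor PHB, which acts in both organs, was the exception as deposited, with 23.0 and 23.1 FPKM in roots and 12.03 and 6.62 in shoots, and was not called with TMM or quantile normalization. Of the stem cell niche genes, WUS was listed in 1 shoot library alone, at 0.0393 FPKM, and CLV3 in none of the 4.

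Trichome regulators gave no common direction. Of the 9 members GL1, with 0.577 and 0.596 FPKM in shoots, did not reach the filter. TCL1 and GIS were listed in neither root library and had 1.27 and 1.92 and 1.46 and 1.14 FPKM in shoots. Both entered the test through the shoots alone, so their calls add nothing to these levels. GL3, which forms complexes both in trichomes and in the hairless cells of the root, had 2.83 and 2.28 FPKM in roots and 0.454 and 0.0169 in shoots, and entered through the roots alone. EGL3, TTG1, TRY, MYB23 and TTG2 were not called as deposited. EGL3 had a difference of 1.18, TTG1 of -0.34, TRY of 0.22, MYB23 of 0.27 and TTG2 of 0.56. TTG1 was called higher in shoot under both other scalings. With TMM scaling the signs of TRY and MYB23 turned, and under quantile normalization those of TRY, MYB23 and TTG2.

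**Figure D3:**
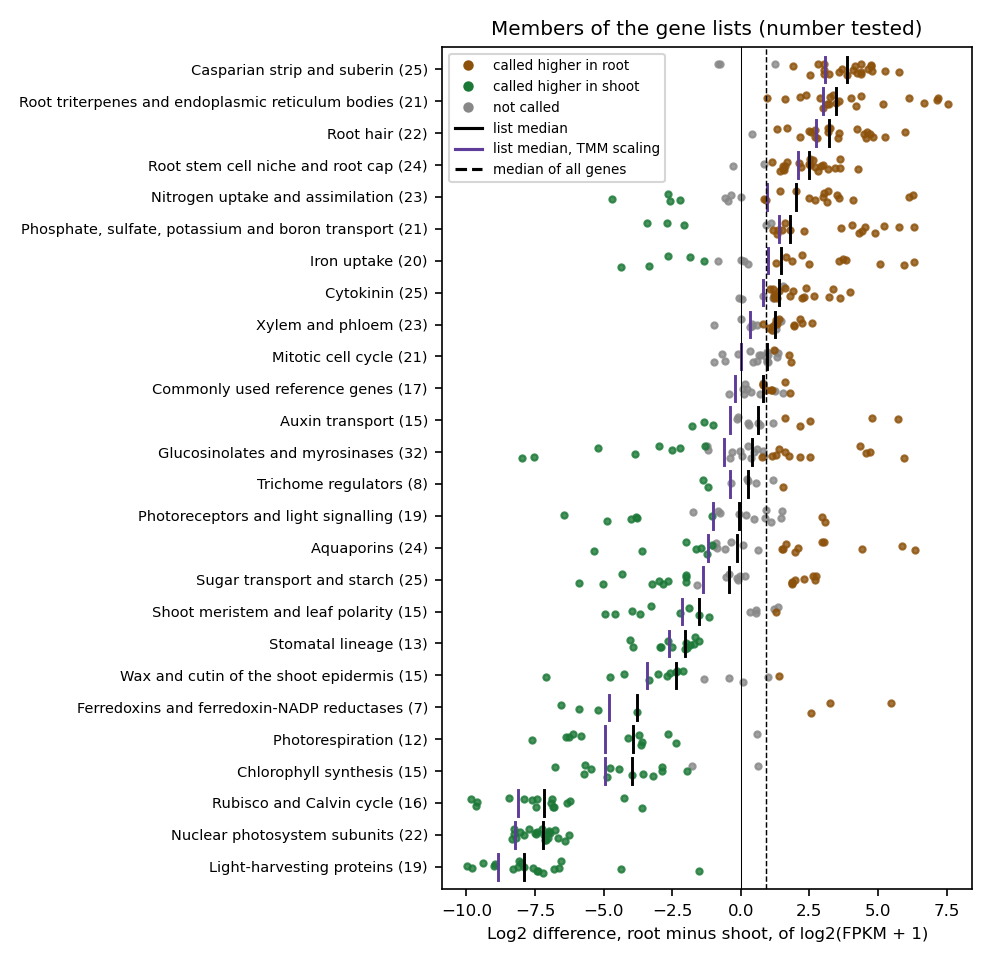
Each point is a tested gene of a list, placed by its log2 difference (root minus shoot) and coloured by call. Bars give the list median as deposited and with TMM scaling, and the dashed line the median of all genes at 0.93. Lists run from light-harvesting proteins at the bottom (median -7.90) to Casparian strip and suberin genes at the top (median 3.89).

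Root hair genes were the counterpart in the root epidermis. Of 22 tested genes 21 were higher in root, and 20 under all 3 scalings, beside 13.9% of all genes, but 19 of the 22 entered the test through the roots alone. Of the other 3, 2 were higher in root as deposited and 1 under all 3 scalings. The count of the list was 18 to 21 with a library left out, and the median difference 3.23. The cell wall proteins PRP3 and LRX1 had 77.0 and 69.3 and 23.6 and 30.4 FPKM in roots and 0.0859 and 0.268 and 0.0457 and 0.0567 in shoots. For PRP3, which entered the test through the roots alone, the difference was 5.98 (SE 0.34). PER44, a peroxidase, XTH14, a wall-modifying transglycosylase, RHS19 and the expansin EXPA18 differed by 5.24, 4.84, 4.60 and 4.55. The factors that start hair growth were low in level. RHD6 had 13.1 and 9.22 FPKM in roots, RSL4 5.06 and 4.63 and LRL3 7.97 and 9.19, and all 3 were listed in neither shoot library. Of the patterning genes, WER had 14.7 and 9.90 FPKM in roots and 0.186 and 0.0438 in shoots. GL2, which acts in hairless root cells and in trichomes, was the member not called, at 4.90 and 4.95 and 3.61 and 3.43 FPKM, and its sign turned with both other scalings (-0.46 with TMM). CSLD3, a cellulose synthase-like gene, was lost with TMM.

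Endodermal genes formed the list with the highest median, 3.89. Of 25 genes 22 were higher in root under all 3 scalings, and 10 to 23 with a library left out. Of the 25, 12 entered the test through the roots alone, and of the other 13, 10 were higher in root under all 3 scalings. CASP2 and CASP4, which help build the Casparian strip membrane domain, had differences of 4.79 and 2.83. CASP2 had 48.2 and 39.6 FPKM in roots and 0.540 and 0.692 in shoots. MYB36, which switches these genes on, had 12.1 and 11.8 FPKM in roots and 0.199 and 0 in shoots. The largest difference of the list was that of AT4G34600, with 89.1 and 84.9 FPKM against 0.649 and 0.547 (difference 5.78, SE 0.31). This gene entered the test through the roots alone. For suberin, CYP86A1, a fatty acid hydroxylase, had 102 and 91.8 FPKM in roots and 1.46 and 1.65 in shoots. The transporter ABCG6, the feruloyl transferase ASFT and the reductase FAR5 differed by 4.76, 4.73 and 4.63. The 3 members not called as deposited were FAR1, KCS20 and CDEF1. The elongase KCS20 had 60.0 and 57.4 FPKM in roots and 127 and 88.7 in shoots and the cutinase CDEF1 37.3 and 43.4 and 76.7 and 60.2, and both were called higher in shoot with TMM and with quantile normalization.

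Regulators of the root tip were almost all higher in root, 22 of 24 as deposited and 16 under all 3 scalings (14 to 23 with a library left out). Of the 24, 17 entered the test through the roots alone, and of the other 7, 5 were higher in root as deposited and 1 under all 3 scalings. PLT1 and PLT2, which maintain the stem cell niche, had 5.67 and 6.16 and 4.45 and 4.94 FPKM in roots, and PLT3 20.3 and 21.6 beside 2.26 and 0.792 in shoots. The root cap factors SMB, BRN1 and BRN2 had 4.56 and 6.41, 6.03 and 6.19 and 3.71 and 3.10 FPKM in roots and at most 0.0487 in a shoot library. XAL1, a MADS-box factor of the root, differed by 4.27. Its relative AGL21 had 9.92 and 9.86 FPKM in roots and was in neither shoot library. UPB1, which sets where cells start to elongate, had 17.2 and 12.7 FPKM in roots and 0.371 and 0.206 in shoots. The peptide gene RGF3 had 6.03 and 8.17 FPKM in roots and 0 in shoots, and MGP, a target of SHR, differed by 3.62. Members also used in shoots were not called under every scaling. SHR and JKD, at 7.31 and 8.48 and 7.70 and 5.85 FPKM in shoots, were called as deposited only, and SCR, with 20.9 and 17.3 and 14.1 and 7.11 FPKM, was not called, with a sign that turned with TMM (-0.11).

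Iron uptake genes divided by organ. Of 20 tested genes 11 were higher in root and 5 in shoot, and 8 and 5 under all 3 scalings (7 to 13 and 0 to 6 with a library left out). Through the roots alone 8 of the 20 entered the test, and through the shoots alone 4. Of the other 8, 3 were higher in root and 1 in shoot under all 3 scalings. IRT1, the main ferrous iron transporter of the root surface, had 14.3 and 12.7 FPKM in roots and 0 and 0.0340 in shoots. Its regulator FIT had 37.4 and 39.5 and 0.156 and 0.156 (difference 5.09, SE 0.35). Both IRT1 and FIT entered the test through the roots alone. F6H1, which makes iron-binding coumarins, and ABCG37, which secretes them, had 100.5 and 88.2 and 108 and 124 FPKM in roots and at most 1.101 in shoots. On the shoot side, FRO6 and FRO7, ferric reductases of leaf membranes and chloroplasts, had 15.9 and 6.52 and 8.32 and 3.28 FPKM in shoots and at most 0.119 in roots. The ferritin FER4 differed by -1.84. AT2G30766 had 0.184 and 0.698 FPKM in roots and 26.2 and 29.6 in shoots. Of the group Ib bHLH factors, BHLH39 was higher in root (20.8 and 25.7 FPKM against 0.692 and 1.41) and BHLH100 in shoot (0.386 and 0.476 against 2.203 and 3.01).

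Most nitrogen genes were higher in root. Of 23 tested genes 15 were higher in root and 4 in shoot, and 9 and 4 under all 3 scalings (6 to 15 and 0 to 5 with a library left out). NRT1.5, which loads nitrate into the xylem, had 423 and 522 FPKM in roots and 6.68 and 3.80 in shoots (difference 6.28, SE 0.32, adjusted p = 0.000684). NRT1.7, which moves nitrate out of leaves through the phloem, had 4.04 and 4.89 FPKM in roots and 36.0 and 31.4 in shoots. NRT2.6 had 0.0835 and 0.128 and 5.36 and 3.24, and entered the test through the shoots alone. Of the other 22 tested genes, 9 were higher in root and 3 in shoot under all 3 scalings. Of the ammonium transporters, AMT1;3 differed by 6.14 and AMT1;2 by 3.03, and AMT1;1 by 0.86, which turned to -0.18 with TMM. The nitrate reductase NIA1 had 159.7 and 186 FPKM in roots and 21.2 and 8.40 in shoots. NIA2, at 282 and 323 and 167 and 73.3 FPKM, was called as deposited only.

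Ammonium assimilation used different family members in the organs. GLN1;2, a cytosolic glutamine synthetase, had 2131 and 2471 FPKM in roots and 127 and 141 in shoots (difference 4.09, SE 0.24, adjusted p = 0.000788). GLN2, the plastid enzyme that reassimilates photorespiratory ammonium, had 105 and 102 FPKM in roots and 743 and 536 in shoots. In glutamate synthases the order turned as well. GLU1, the ferredoxin-dependent enzyme of leaves, had 1.00 and 1.11 FPKM in roots and 130.1 and 20.5 in shoots, with the shoot libraries more than 6 times apart. Its paralog GLU2 had 50.6 and 59.2 FPKM in roots and 9.74 and 2.57 in shoots, and the NADH-dependent GLT1 207 and 297 and 51.4 and 8.17. All 5 were called under the 3 scalings, and none of GLU1, GLU2 and GLT1 had overlapping tissues.

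Transporters of phosphate, sulfate, potassium and boron followed the same division. Of 21 tested genes 16 were higher in root and 3 in shoot, and 12 and 3 under all 3 scalings (7 to 17 and 1 to 3 with a library left out). Through the roots alone 5 of the 21 entered the test, PHT1;2 and HAK5 among them, and through the shoots alone 1, SULTR3;1. Of the other 15, 7 were higher in root and 2 in shoot under all 3 scalings. PHT1;1 and PHT1;2, neighbouring phosphate uptake genes that are close in sequence, had 449.95 and 459 and 40.8 and 40.2 FPKM in roots and 8.93 and 5.98 and 0.461 and 0.366 in shoots. SULTR1;2, the main sulfate uptake transporter, had 261 and 314 FPKM in roots and 3.49 and 1.90 in shoots (difference 6.31, SE 0.32, adjusted p = 0.000684). BOR2, which exports borate, differed by 5.23, and the potassium transporter HAK5 had 10.8 and 12.7 FPKM in roots and 0 and 0.0112 in shoots. The shoot-higher members were PHT2;1, a phosphate transporter of the chloroplast (10.1 and 9.69 FPKM in roots, 109 and 122 in shoots), SULTR2;1 (28.4 and 27.6 and 132 and 112) and SULTR3;1 (0 and 0.0298 and 5.58 and 5.50).

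Aquaporins, the water channels of plasma membrane (PIP) and vacuole (TIP), were high in both organs, with no common direction and a list median whose sign turned with quantile normalization (-0.14 as deposited, -1.19 with TMM, 0.21 with quantile normalization). Of 24 genes 10 were higher in root and 7 in shoot, and 7 and 5 under all 3 scalings (5 to 11 and 1 to 11 with a library left out). Through the roots alone 3 of the 24 entered the test, TIP2;3 and TIP4;1 among them. Of the other 21, 4 were higher in root and 5 in shoot under all 3 scalings. TIP2;3 had 93.0 and 74.7 FPKM in roots and 0 and 0.0420 in shoots, and TIP4;1 86.6 and 77.8 and 0.482 and 0.318. TIP2;1 of the same subfamily was opposite, at 104 and 83.7 FPKM in roots and 764 and 1675 in shoots. PIP2;2 differed by 3.04 and NIP1;1 by 4.42, while PIP2;6 had 8.16 and 7.17 FPKM in roots and 295 and 414 in shoots and PIP2;5 differed by -1.99. TIP1;2, the most abundant member in shoots, was called higher in shoot as deposited only, at 895 and 660.1 FPKM in roots and 1679 and 3329 in shoots.

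**Figure D4:**
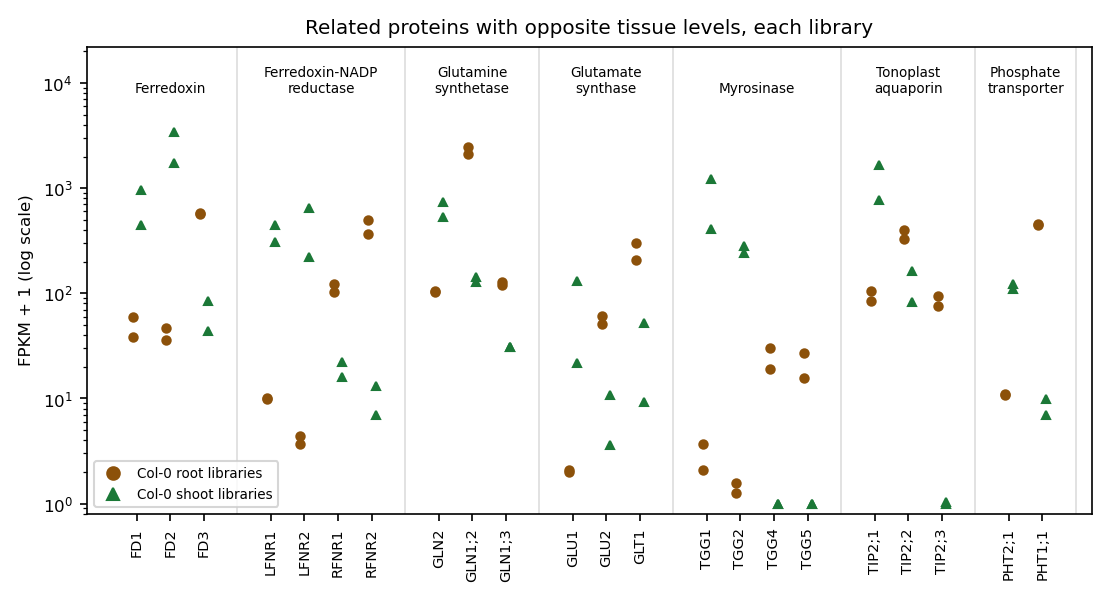
FPKM + 1 on a log axis for related proteins in each Col-0 library, with circles for roots and triangles for shoots. In each family at least 1 member lies higher in both roots and another higher in both shoots, for example GLN1;2 at 2131 and 2471 FPKM in roots beside GLN2 at 743 and 536 FPKM in shoots. The families were chosen after their values were seen.

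Ferredoxins carry electrons in plastids, from photosystem I in leaves and from NADPH in roots, and ferredoxin-NADP reductases (FNR) connect them to NADPH. All 7 tested members were called as deposited, 4 higher in shoot and 3 in root, and 4 and 2 under all 3 scalings (3 to 4 and 1 to 3 with a library left out). The leaf ferredoxins FD1 and FD2 had 58.6 and 37.1 and 45.7 and 34.6 FPKM in roots and 446 and 959.6 and 1748 and 3401 in shoots. FD3 had 585 and 572 FPKM in roots and 42.6 and 82.9 in shoots, a difference of 3.26 (SE 0.36, adjusted p = 0.00244) that was not called with TMM (2.22). Leaf-type LFNR1 and LFNR2 had 8.94 and 9.17 and 2.72 and 3.39 FPKM in roots and 442 and 309 and 641 and 222 in shoots. Root-type RFNR1 and RFNR2 had 101.4 and 121 and 367 and 501 FPKM in roots and 21.2 and 15.1 and 12.2 and 5.91 in shoots. FD4 was listed in none of the 4 libraries.

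Glucosinolates are sulfur-rich defence compounds that myrosinases hydrolyse when tissue is damaged. The list gave calls both ways and a median whose sign turned with TMM (0.42 as deposited, -0.61 with TMM). Of 32 tested genes 12 were higher in root and 8 in shoot, and 6 and 8 under all 3 scalings (4 to 17 and 3 to 11 with a library left out). Through the roots alone 3 of the 32 entered the test, with TGG4 and TGG5 among them. Through the shoots alone 3 entered, with TGG2 and ESP among them. Of the other 26, 4 were higher in root and 5 in shoot under all 3 scalings. Among the myrosinases, TGG1 and TGG2 had 1.11 and 2.71 and 0.263 and 0.565 FPKM in roots and 1226 and 408 and 243 and 278 in shoots. TGG4 and TGG5, which are close in sequence, had 18.0 and 28.9 and 14.5 and 25.9 FPKM in roots and were listed in neither shoot library. ESP, which steers the products towards nitriles, had 0 and 0.214 FPKM in roots and 11.7 and 19.5 in shoots. In the aliphatic path CYP79F1 had 3.46 and 3.34 FPKM in roots and 182 and 141 in shoots, and its tandem neighbour CYP79F2 92.6 and 111 and 22.6 and 12.2. The chain elongation enzyme MAM3 had 204 and 216 FPKM in roots and 11.7 and 4.12 in shoots, and MAM1 60.8 and 58.4 and 202 and 108. CYP81F4, which modifies indole glucosinolates, reached 1063 and 1005 FPKM in roots against 17.0 and 14.5 in shoots (difference 5.95, SE 0.22, adjusted p = 0.000623), and its locus is shared with another gene. The core enzymes common to both paths, such as SUR1 (71.0 and 80.5 FPKM and 68.8 and 43.1) and UGT74B1 (82.4 and 85.1 and 78.1 and 39.6), were not called, and with TMM their signs turned (-0.56 and -0.45).

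Genes of root triterpenes and endoplasmic reticulum bodies were higher in root without exception as deposited, 21 of 21, and 18 under all 3 scalings (12 to 20 with a library left out). Of the 21, 11 entered the test through the roots alone, and of the other 10, 7 were higher in root under all 3 scalings. The thalianol genes encode a short path from oxidosqualene to a root triterpene and lie together on chromosome 5, from 19417030 to 19461689 on the TAIR10 build. The synthase THAS1 had 82.9 and 83.9 FPKM in roots and 0.380 and 0.0720 in shoots, THAH 77.0 and 75.9 and 0.971 and 1.26, and THAD 138 and 138 and 0.506 and 0.208. For THAD, which entered the test through the roots alone, the difference was 6.69 (SE 0.31). The acyltransferase BAHD1 had 13.6 and 8.91 FPKM in roots and 0 in shoots, and AT5G47950 21.6 and 18.7 and 0.0319 and 0. Of the 9 flanking or interspersed genes that were tested, only RABA4C was called, at 2.23, and its locus is shared with the gene beside it, which was not called.

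**Figure D5:**
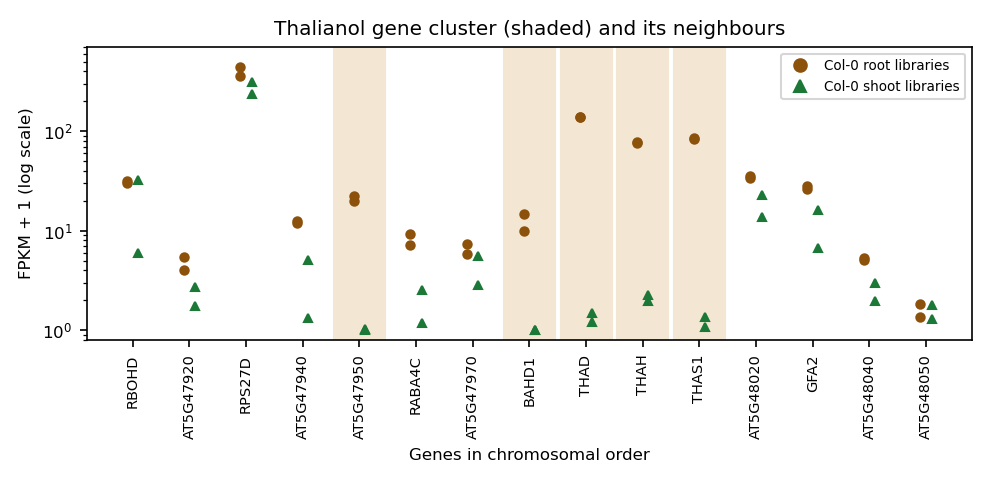
FPKM + 1 on a log axis for 15 genes in chromosomal order, in each Col-0 root and shoot library. The 5 shaded list members lie between 8.91 and 138 FPKM in roots and at or under 1.26 FPKM in shoots, while the genes around them overlap or lie closer together.

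The marneral genes CYP705A12, MRO and MRN1 and the arabidiol genes PEN1 and CYP705A1, each from another triterpene cluster, had 5.94 to 17.8 FPKM in roots and at most 0.201 in shoots. Among endoplasmic reticulum body genes, the beta-glucosidases BGLU21 and BGLU22, which are close in sequence, had 312 and 263 and 189 and 159 FPKM in roots and 0.527 and 0.538 and 0.392 and 0.0413 in shoots. GLL22, a GDSL lipase-like protein of these bodies, had 433 and 349 FPKM in roots and 1.92 and 1.61 in shoots. PYK10 was the highest member, with 6496 and 6003 FPKM in roots and 741 and 499.9 in shoots. It was not called with TMM. JAL22 had 222 and 224 FPKM in roots and 127 and 104 in shoots and turned to -0.09 with TMM.

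Called genes lay beside genes called the same way slightly more often than the overall share. Over 16279 tested nuclear genes with a locus of their own, 32.8% were called higher in root and 10.6% higher in shoot. Next neighbours of root-called genes were root-called in 36.3% of cases, and next neighbours of shoot-called genes were shoot-called in 15.2%. Runs of consecutive called genes were sought with tested genes that share a locus passed over, so such genes can lie inside a run. The longest run called higher in root under all 3 scalings held 11 genes, on chromosome 4 from 8716600 to 8813478. It runs from AT4G15270 to BIA1 and includes PEN1, CYP705A1, CYP705A2, CYP705A4, CYP702A2, CYP702A5 and CYP702A6. Runs of 5 included KTI1 with the serine carboxypeptidase-like genes scpl3, scpl4, scpl5 and scpl6, and a set with UGT76E3, UGT76E4 and UGT76E5. A single run of 5 was called higher in shoot, on chromosome 4 from AT4G22470 to AT4G22520. These runs were found after the values were seen and many hold tandem copies, so their members are no independent observations.

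Hormone genes varied by member. In auxin transport 5 of 15 tested genes were higher in root and 3 in shoot, and 4 and 3 under all 3 scalings (1 to 9 and 0 to 3 with a library left out), and the list median turned from 0.63 as deposited to -0.40 with TMM. PIN2, the auxin efflux carrier of root gravitropism, had 69.3 and 65.2 FPKM in roots and 0.372 and 0.190 in shoots (difference 5.74, SE 0.34). It entered the test through the roots alone, and 1 other member through the shoots alone. Of the other 13, 3 were higher in root and 2 in shoot under all 3 scalings. ABCB4, LAX3 and PIN5 differed by 4.77, 2.52 and 2.17. PIN4, PIN6 and LAX1 were higher in shoot, with LAX1, an influx carrier, at 13.9 and 10.7 FPKM in roots and 37.3 and 53.0 in shoots. PIN3, PIN7 and AUX1 were not called as deposited. AUX1, the main influx carrier of the root tip, had 97.1 and 86.6 FPKM in roots and 62.6 and 55.6 in shoots, and its sign turned with TMM (-0.40).

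Cytokinin genes were higher in root in 18 of 25 cases as deposited and 11 under all 3 scalings (5 to 23 with a library left out), and in shoot in 0. Of the 25, 7 entered the test through the roots alone, and of the other 18, 11 were higher in root as deposited and 6 under all 3 scalings. CYP735A2, which makes trans-zeatin, the form sent to the shoot, had 19.7 and 21.1 FPKM in roots and 0.497 and 0.240 in shoots. Its difference was 3.97 (SE 0.36), and it entered the test through the roots alone. ABCG14, which loads it into the xylem, had 86.4 and 94.7 FPKM in roots and 11.7 and 5.37 in shoots. LOG7, an activating enzyme, differed by 3.61. AHK4, a receptor, had 24.5 and 27.2 FPKM in roots and 3.93 and 0.690 in shoots, and the response regulators ARR5 and ARR10 differed by 2.38 and 2.69. The receptors AHK2 and AHK3 were not called, with shoot levels of 5.91 and 0.667 and 21.2 and 3.16 FPKM that lay more than 6 times apart.

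Sugar and starch genes were split, and the starch synthesis genes GBSS1, SS1, APL1 and ADG1 were among those higher in shoot. Of 25 genes 10 were higher in shoot and 8 in root, and 10 and 5 under all 3 scalings (3 to 14 and 2 to 10 with a library left out). Among these, 1 gene entered the test through the roots alone and 1 through the shoots alone. Of the other 23, 9 were higher in shoot and 4 in root under all 3 scalings. TPT, which exports triose phosphate from chloroplasts, had 9.48 and 8.69 FPKM in roots and 611 and 575 in shoots. Its difference was -5.88 (SE 0.21, adjusted p = 0.000623). SWEET11, a sucrose exporter that feeds the phloem, had 5.86 and 5.95 FPKM in roots and 125 and 148 in shoots, the starch-degrading BAM3 1.16 and 0.713 and 111 and 34.7, and APL1, an ADP-glucose pyrophosphorylase subunit, 2.11 and 2.64 and 63.7 and 14.2. On the root side, GPT1, which imports glucose phosphate into plastids, had 127 and 127 FPKM in roots and 17.8 and 18.2 in shoots. The sucrose synthases SUS3 and SUS4 differed by 2.71 and 2.63, and AT5G51830 by 2.32.

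Vascular genes lay nearer to the bulk of genes. Of 23 tested xylem and phloem genes 13 were higher in root as deposited and 4 under all 3 scalings, with a median of 1.25 beside 0.93 for all genes (0 to 21 with a library left out). Through the roots alone 4 of the 23 entered the test. Of the other 19, 9 were higher in root as deposited and 4 under all 3 scalings. TMO5, which with LHW drives divisions of the vascular cylinder, had 54.7 and 47.1 FPKM in roots and 10.02 and 5.80 in shoots, and LHW 21.4 and 29.9 and 8.17 and 2.50. XCP1, a xylem protease, and IRX9 and LAC17, of secondary wall synthesis, differed by 2.14, 1.93 and 1.95, and the callose synthase CALS7 by 1.38, called as deposited only. The mitotic list had 3 of 21 calls higher in root, CYCB1;3, CYCB2;1 and CYCB2;2, and 0 under all 3 scalings, with a median of 0.97 as deposited and -0.0041 with TMM. Without shoots 1 and 2 the mitotic count was 16 and 9, and without either root it was 0.

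Genes often used as references for normalization moved with the scaling. Of 17, 7 were higher in root as deposited and 0 with TMM, and the list median was 0.81 and -0.23. GAPC1, a cytosolic glyceraldehyde phosphate dehydrogenase, had 1397 and 1210.1 FPKM in roots and 342 and 413 in shoots, GAPC2 1470.5 and 1487 and 617 and 749, and ACT8 447 and 419 and 129 and 156. AT4G34270 differed by 1.16, UBC21 by 0.92 and YLS8 by 0.81, and the last pair turned to -0.09 and -0.23 with TMM. UBQ10 had 871 and 806 FPKM in roots and 619 and 1029 in shoots, and TUB2 267 and 253 and 230.0 and 231, and neither was called as deposited or with TMM (-0.98 and -0.87). None of the 17 was called under all 3 scalings. With a library left out, 0 to 9 were called higher in root as deposited. Of 9 genes for seed storage and oil body proteins, 7 were listed, and none was high enough to be tested.

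Transcripts of the organelle genomes took small shares. Chloroplast genes made 2.45% and 1.51% of the summed FPKM in shoots and 0.039% and 0.229% in roots, where the roots differed from each other almost 6 times. Of 72 tested chloroplast genes 20 were higher in shoot and 0 in root, and 19 under all 3 scalings (1 to 17 with a library left out). The median difference of the chloroplast genes was -1.19, and -0.20 and -1.92 without roots 1 and 2. In OE-SAUR41 it was 0.0071. Mitochondrial genes made 0.155% and 0.691% in roots and 0.0495% and 0.0378% in shoots. Their median difference was 1.64, and 2.46 and 0.78 without roots 1 and 2. Of 52 tested, 19 were higher in root as deposited and 1 under all 3 scalings (1 to 17 with a library left out). How many organelle genes entered the test through 1 tissue alone was not counted, so the organelle counts are no support. Organelle transcripts mostly lack a stable poly(A) tail, and the part of library preparation in these levels was not tested.

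Gene families were collected by words in their names, which misses members. How many of their members entered the test through 1 tissue alone was not counted, so the family counts are no support. LAC7, GSTU25, NAC003, BBX14, BZS1 and CYP706A6 entered in that way and are described by their levels. Laccases, which polymerise lignin, had 10 of 12 tested members higher in root and 8 under all 3 scalings (3 to 11 with a library left out), with LAC7 at 189.8 and 179 FPKM in roots and 0.305 and 0.294 in shoots. Glutathione S-transferases had 27 of 38 higher in root and 5 in shoot, and 19 and 5 under all 3 (15 to 29 and 0 to 6 with a library left out). GSTU25 had 231 and 228 FPKM in roots and 0.556 and 0.429 in shoots, and GSTU18 1.42 and 1.102 and 25.7 and 27.6. WRKY factors, known mainly from defence, had 30 of 54 higher in root and 2 in shoot, and 25 and 2 under all 3 (14 to 50 and 0 to 6 with a library left out), with WRKY65 at 4.82 and WRKY22 at -1.33. NAC factors had 45 of 69 higher in root and 0 in shoot, and 29 and 0 under all 3 (17 to 61 and 0 to 2 with a library left out), with NAC003 at 47.2 and 47.1 FPKM in roots and 0.434 and 0.293 in shoots. B-box factors, many of which act in light signalling, went the other way, with 12 of 24 higher in shoot and 3 in root, and 12 and 2 under all 3 (3 to 18 and 1 to 6 with a library left out). BBX14 had 0.235 and 0.192 FPKM in roots and 58.3 and 24.6 in shoots, and BZS1 15.2 and 10.7 and 0.862 and 0.619. Cytochrome P450 genes were on both sides, 73 of 132 higher in root and 25 in shoot, and 58 and 25 under all 3 (41 to 89 and 4 to 37 with a library left out), with CYP706A6 the largest on the shoot side at 0.175 and 0.123 FPKM in roots and 67.9 and 60.5 in shoots.

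The tissue difference was next set beside that of OE-SAUR41, fitted on its own 4 libraries. Of 19096 genes tested there, 13949 were higher in root (73.0%) and 2710 in shoot (14.2%). These counts are on the values as deposited, and the tissue difference of this line was not fitted with TMM or quantile normalization. Its median difference over the 19385 genes tested in Col-0 was 1.24, beside 0.93 in Col-0. Of the Col-0 root calls 98.7% were also called higher in root in OE-SAUR41, which is 43.7% of the OE-SAUR41 root calls on the same genes. Of the Col-0 shoot calls 95.3% were also called, which is 73.0% of the OE-SAUR41 shoot calls. A single gene was called in opposite directions. Across the 19385 genes, which do not count as independent replicates, the differences in the genotypes had a Pearson's r of 0.96 and a Spearman's rho of 0.92. The OE-SAUR41 pairs were closer to each other than the Col-0 shoot pair, with a median SE of 0.22 against 0.37.

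Whether the tissue difference itself differed between genotypes was tested with all 8 libraries. No gene of 19863 was called (0%), with 948 at an unadjusted p under 0.05 and a smallest adjusted p of 0.577. The smallest p-values for a larger root-minus-shoot difference in Col-0 were those of CYP82C4, NIT2 and MLP34. CYP82C4, a hydroxylase of the iron-related coumarin path, had 2.69 and 2.57 FPKM in Col-0 roots and 0.139 and 0.194 in OE-SAUR41 roots, and 0 in all shoots. NIT2, a nitrilase, stood at 2.17 and 1.62 FPKM in the shoots of Col-0, and in those of OE-SAUR41 at 9.06 and 8.80. The smallest in the other direction were those of AT2G02050, CDEF1 and IPSP. IPSP had 2.16 and 2.84 FPKM in Col-0 roots and 11.1 and 11.5 in OE-SAUR41 roots. Without Col-0 shoot 2 the test called 6904 genes, and without Col-0 shoot 1 it called 1. The count thus rested on which Col-0 shoot library was kept.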

How the data were processed

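Of the 8 sequenced libraries, the 4 made from Col-0 seedlings are described here. Per the file headers, the deposited values are FPKM that the authors computed, and the build is TAIR10 according to the submitters' processing notes. For aligner, quantifier, strand setting and fragments matching several genes: not given in the sources used here. Files were joined on the gene identifier, and an unlisted gene was set to 0. AT2G01010, AT3G41768 and LHCB1.3 were omitted as failed estimates, being absent from 1 replicate and above 100 FPKM in its partner. Names came from the files and a RefSeq table that matched 25139 of 25404 genes, and 3635 genes share a locus with another gene.

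Genes at 1 FPKM or more in at least 2 of the 4 libraries were fitted on log2(FPKM + 1) with limma 3.58.1 in R 4.3.3 (lmFit, contrasts, eBayes with trend), with 2 residual degrees of freedom and a prior of 3.07. Depth is unknown, so no counting interval is given, and with 2 against 2 libraries 0.333 is the smallest p an exact permutation test allows. The interaction used all 8 libraries. For TMM, unweighted factors were taken from the FPKM values, with the outer 30% of ratios and 5% of levels trimmed at both ends. The gene length correction removed a lowess trend (span 0.3, 3 iterations). The alternatives were quantile normalization, TMM, the length correction, pseudocounts of 0.1 and 5, a filter at 5 FPKM and none, all 8 libraries in the fit, the replicate number as a block, no trend, a least log2 difference of 1, and leaving out each library. Crossed replicate numbers, and TMM without each Col-0 shoot library, were added after the data were seen.

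The members, the 27 gene lists (542 entries) and the tests were chosen with earlier results of these data known. Lists are described by counts and medians, with no test of the list. By rule the text names the 12 largest called genes each way that averaged 5 FPKM or more in the higher tissue, with non-overlapping libraries and a locus of their own. It names up to 6 called members of each list, or 4 each way, every member of lists of 10 or fewer, and for families the largest each way. One list member's own result is not reported here. Other members are named as examples chosen after their values were seen. Name matches brought unrelated genes into some families, such as pentatricopeptide repeat, ABC transporter and ribosomal proteins, and only 6 families are reported. Sequences are not shown because none were used here. Software for tables and plots was matplotlib 3.10.9, numpy 2.4.6 and pandas 2.3.3 under Python 3.11.15.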

Additional observations from a re-analysis of the deposited data

How the results depend on the processing

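Counts of genes higher in root and in shoot were 6236 and 2073, and 3016 and 3228 with TMM, 4256 and 3595 with quantile normalization, 10856 and 2577 with the length correction, and 10359 and 2575 with all 8 libraries in the fit. Leaving out 1 library gave 1624 to 13515 root calls and 548 to 3397 shoot calls. TMM without Col-0 shoots 1 and 2 gave 7327 and 5047 root calls and 7111 and 5149 shoot calls. The other alternatives stayed within 1.5 times. Across genes, same-numbered Col-0 roots and shoots deviated with r = -0.232. With 2 libraries a tissue and genes that are not independent, this value cannot decide whether the numbers pair them. The replicate block gave 7655 and 2215 calls, and crossed numbers 8173 and 2298. The test of the genotype difference called 0 genes, 2 with no filter, and 1 and 6904 without Col-0 shoots 1 and 2 (0 to 6904 with each library left out). The causes of these shifts were not tested.

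Medians of some lists turned sign. Trichome regulators, 0.25 as deposited, had -0.34 with the 5 FPKM filter, -0.74 with quantile normalization, and -0.41 with TMM (-0.83 and -0.43 without shoots 1 and 2). Photoreceptors, -0.067 as deposited, had 0.055 with that filter and -0.68 to 0.54 with a library left out. Aquaporins, -0.14 as deposited, had 0.21 with quantile normalization and -0.48 to 0.20 with a library left out (0.077 without root 2). Sugar transport, -0.44 as deposited, had -1.01 to 0.060 with a library left out. With TMM, glucosinolate genes had -0.61 (-0.73 and -0.60 without shoots 1 and 2), auxin transport -0.40 (-0.74 and -0.23), the mitotic list -0.0041 (-0.077 and -0.22) and reference genes -0.23 (-0.74 without shoot 1). Among the genes named by rule, TRY had -0.82, MYB23 -0.67 and TTG2 -0.35 with quantile normalization, and TRY, 0.22 as deposited, had -0.16 to 0.61 with a library left out. With TMM, TRY had -0.32, MYB23 -0.49, UBC21 -0.090 and YLS8 -0.23. With TMM and without shoot 1 these were -1.04, -0.63, -0.49 and -0.74, with ACT8 at -0.057, AT4G34270 at -0.18 and GAPC2 at -0.54. With TMM and without shoot 2, MYB23 had -0.47 and TTG2 -0.39. TMM also turned the signs of CAT2, GL2, SCR, AMT1;1, AUX1, JAL22, SUR1, UGT74B1, HEMA2, UBQ10 and TUB2, which are named as examples. Of all 499 tested list members, 369 kept sign and call with TMM and 403 with quantile normalization, 57 and 35 turned sign, and 60 and 35 lost the call. Of the 181 genes named by rule, which are mostly the largest, 164 kept direction and call with TMM and 169 with quantile normalization, 176 without shoot 1, 178 without shoot 2, and 109 without each root library, where 72 lost the call. With 2 libraries a group and unknown depth, low genes and those on which the shoot libraries differ are the least certain.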

Other observations

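Some genes were present in 1 organ and nearly unlisted in the other. At 10 FPKM or more in both libraries of a tissue and under 0.1 in both of the other were 117 root genes and 48 shoot genes. On the root side the highest after JAL10 was AIR1B, with 126 and 101.4 FPKM in roots and 0 in both shoot libraries. On the shoot side AT3G05730 had 0.0750 and 0 FPKM in roots and 242 and 317 in shoots. SEP3, a MADS-box factor best known from floral organs, was listed in neither root library and had 14.6 and 12.5 FPKM in shoots of these 5-day-old seedlings. Genes picked by this rule all entered the test through 1 tissue, so their calls add nothing to these levels. These genes were chosen after their values were seen, and no cause was tested.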
